A study of Mus musculus with 15 samples.

Results

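Cholesterol synthesis, sterol sensing and storage were followed through 33 genes, chosen by symbol from what they are known to do, in liver arrays of mice fed a basal diet or an atherogenic and high-fat diet (Ath+HF). A value was found for 28 of the 33 genes, out of 19938 genes with 1 symbol on the array. The other 5 listed genes, Acat2, Soat1, Soat2, Nr1h2 and Mbtps2, are not analysed here, which leaves 17 of 18 listed synthesis enzymes, 5 of 6 genes of SREBP2 control, 3 genes of sterol transport inside the cell and 3 of 4 genes of the LXR side. No value could be given for esterification, the storage step, whose enzymes are Soat1 and Soat2.

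All mice were male C57BL/6J, and their diets started at week 8. There are 5 groups of 3 arrays. At 38w, the week of age reached after 30 weeks of feeding, they are the basal diet, Ath+HF and Ath+HF with 3% branched-chain amino acids (Ath+HF+BCAA), and at 68w, after 60 weeks, they are Ath+HF and Ath+HF+BCAA. Since no basal diet array of 68w was used here, a comparison of 68w with basal diet or with 38w holds age, length of feeding and any batch together, and these cannot be told apart. Whether the 3 arrays of a group came from 3 mice is not stated in the sources used here, and the p-values cover only the spread among these arrays, part of which may be technical. In whole liver, fewer cells of a type and less RNA per cell cannot be told apart.

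Values are log2 signals, so a difference of 1 is a doubling, and differences are given ± their standard error. limma fitted all 15 arrays together, and a gene is called higher or lower at a Benjamini-Hochberg adjusted p under 0.05 over the 19938 genes. The hepatocyte markers had a mean signal of 13.18 to 13.37 in every array on the log2 scale. It was 13.33 to 13.37 under the label Ath+HF 68w and 13.18 to 13.26 under the label Ath+HF+BCAA 68w, without overlap. Before the results, 2 features of the arrays need stating. The mean signal of 16 macrophage and Kupffer cell markers was 8.85 to 9.004 under the label Ath+HF 68w, below basal diet at 9.56 to 9.61, while under the label Ath+HF+BCAA 68w it was 11.08 to 11.37. Markers of stellate cells and fibroblasts parted in the same direction between these groups, from 9.34 to 9.65 against 10.23 to 10.31. So did those of cholangiocytes, from 7.13 to 7.40 against 8.04 to 8.11, while those of hepatocytes went the other way by less. By qRT-PCR, the paper reports Col1a2, Acta2 and Pdgfrb repressed with BCAA, and by staining and hydroxyproline it reports less fibrosis. Of its GeneChip data, the paper states that many inflammation and fibrosis genes rose as the disease advanced, and that BCAA held this rise down. Here the means of Col1a2, Acta2 and Pdgfrb were higher under the label Ath+HF+BCAA 68w than under Ath+HF 68w. In that order they were 9.47 against 8.04, 9.15 against 8.03 and 9.71 against 8.14. Every direction between the 68w groups rests on these labels, and whether they were exchanged was not tested. With exchanged labels, each difference between the 68w groups would have the opposite sign, and each value of a 68w group against basal diet would pass to the other diet. The values against 38w would have to be computed anew, and so would the difference between the ages in the effect of BCAA. The other feature is replicate 3 of Ath+HF+BCAA at 38w, which was the highest of its group in 20 of the 28 genes and in 13 of the 17 enzymes. Results that rest on it are given without it as well, or with the signal of each array.

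As background, liver cells build cholesterol from acetyl-CoA through mevalonate, farnesyl diphosphate, squalene and lanosterol. SREBP2, the product of Srebf2, switches on the enzymes of this route: when sterols are scarce, Scap carries it from the endoplasmic reticulum to the Golgi, where proteases release its active part, and when sterols are plentiful, the Insig proteins hold Scap and SREBP2 back. LXR receptors work on the other side, where oxidised sterols bind them and they switch on exporters such as Abca1 and Abcg1. Atherogenic rodent diets carry added cholesterol, and the question the arrays put to these genes is how each side stood on the diet, with or without BCAA, at each age.

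The promoters of 6 genes on which the results turn are shown here because the CCAAT box (CCAAT), read by NF-Y, the sterol regulatory element (SRE, TCACNCCAC), read by SREBP2, and a DR4-like pair of half-sites (GGTNA and GGTCA, 5 bases apart), of the kind read by LXR, are the elements through which such genes are known to be switched. Capitals mark matches to these motifs or to the SRE core (CACCCCAC) on either strand, with overlapping matches merged, and each window holds 250 bases before and 50 after the start of the RefSeq gene in GRCm38.p6. The windows are Hmgcs1 (chr13:119690101-119690400, plus strand), Msmo1 (chr8:64733529-64733828, minus strand), Hsd17b7 (chr1:169969156-169969455, minus strand), Ebp (chrX:8193463-8193762, minus strand), Insig2 (chr1:121332540-121332839, minus strand, the most upstream of 3 listed and the only one of them with a CCAAT box) and Abca1 (chr4:53159846-53160145, minus strand).
Hmgcs1: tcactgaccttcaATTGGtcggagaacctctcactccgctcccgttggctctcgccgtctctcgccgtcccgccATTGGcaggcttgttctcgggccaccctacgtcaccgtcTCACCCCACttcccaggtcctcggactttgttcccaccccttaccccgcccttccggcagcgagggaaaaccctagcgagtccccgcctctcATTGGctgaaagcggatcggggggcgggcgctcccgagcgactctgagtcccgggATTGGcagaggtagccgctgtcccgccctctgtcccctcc
Msmo1: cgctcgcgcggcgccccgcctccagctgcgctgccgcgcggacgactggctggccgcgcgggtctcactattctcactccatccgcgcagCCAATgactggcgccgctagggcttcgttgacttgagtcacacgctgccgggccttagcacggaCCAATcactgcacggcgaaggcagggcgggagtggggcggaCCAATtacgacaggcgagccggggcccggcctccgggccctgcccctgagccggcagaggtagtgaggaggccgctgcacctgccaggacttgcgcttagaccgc
Hsd17b7: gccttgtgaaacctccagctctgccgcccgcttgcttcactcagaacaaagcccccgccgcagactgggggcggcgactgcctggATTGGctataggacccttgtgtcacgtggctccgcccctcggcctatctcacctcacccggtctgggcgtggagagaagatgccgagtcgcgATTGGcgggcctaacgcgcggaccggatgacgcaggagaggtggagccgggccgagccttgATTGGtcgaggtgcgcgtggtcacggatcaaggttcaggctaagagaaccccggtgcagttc
Ebp: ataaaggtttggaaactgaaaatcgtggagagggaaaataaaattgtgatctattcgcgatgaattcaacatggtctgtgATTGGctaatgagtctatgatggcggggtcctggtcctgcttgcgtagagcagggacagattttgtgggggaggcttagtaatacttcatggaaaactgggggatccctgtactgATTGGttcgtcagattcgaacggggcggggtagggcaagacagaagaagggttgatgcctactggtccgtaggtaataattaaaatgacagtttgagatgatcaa
Insig2: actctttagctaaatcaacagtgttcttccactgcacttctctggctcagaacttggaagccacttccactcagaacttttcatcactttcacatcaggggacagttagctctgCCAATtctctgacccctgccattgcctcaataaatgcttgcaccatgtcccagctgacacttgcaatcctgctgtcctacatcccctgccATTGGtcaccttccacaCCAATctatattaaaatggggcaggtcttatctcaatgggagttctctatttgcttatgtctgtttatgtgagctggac
Abca1: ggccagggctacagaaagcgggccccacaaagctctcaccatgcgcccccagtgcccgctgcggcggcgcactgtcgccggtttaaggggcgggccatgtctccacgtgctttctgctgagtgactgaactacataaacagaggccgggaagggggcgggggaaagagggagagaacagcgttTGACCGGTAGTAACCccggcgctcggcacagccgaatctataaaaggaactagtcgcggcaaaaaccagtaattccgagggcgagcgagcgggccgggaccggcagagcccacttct

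RefSeq promoters were matched for 26 of the 33 genes, 15 of them synthesis enzymes. No window was matched for Fdps, Fdft1, Sqle, Stard4, Npc1, Soat2 and Abcg1, so these were not searched for any motif. A CCAAT box was found in 14 of these 15 enzymes, against 42.3% of 17492 coding genes with a window, and a GC box (GGGCGG) in 14 of 15, against 49.2%. An SRE was found in Hmgcs1 alone of the 26, against 1.41% of coding genes, and its core also in Acat2, against 3.33%. The DR4-like pair was found in Abca1 alone of the 26, against 0.172% of coding genes. These letter matches describe the windows and show no binding. Msmo1, Hsd17b7 and Ebp all carry CCAAT boxes here, as nearly all of these enzymes do, and any part of the boxes in their changes was not tested.

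**Figure D1:**
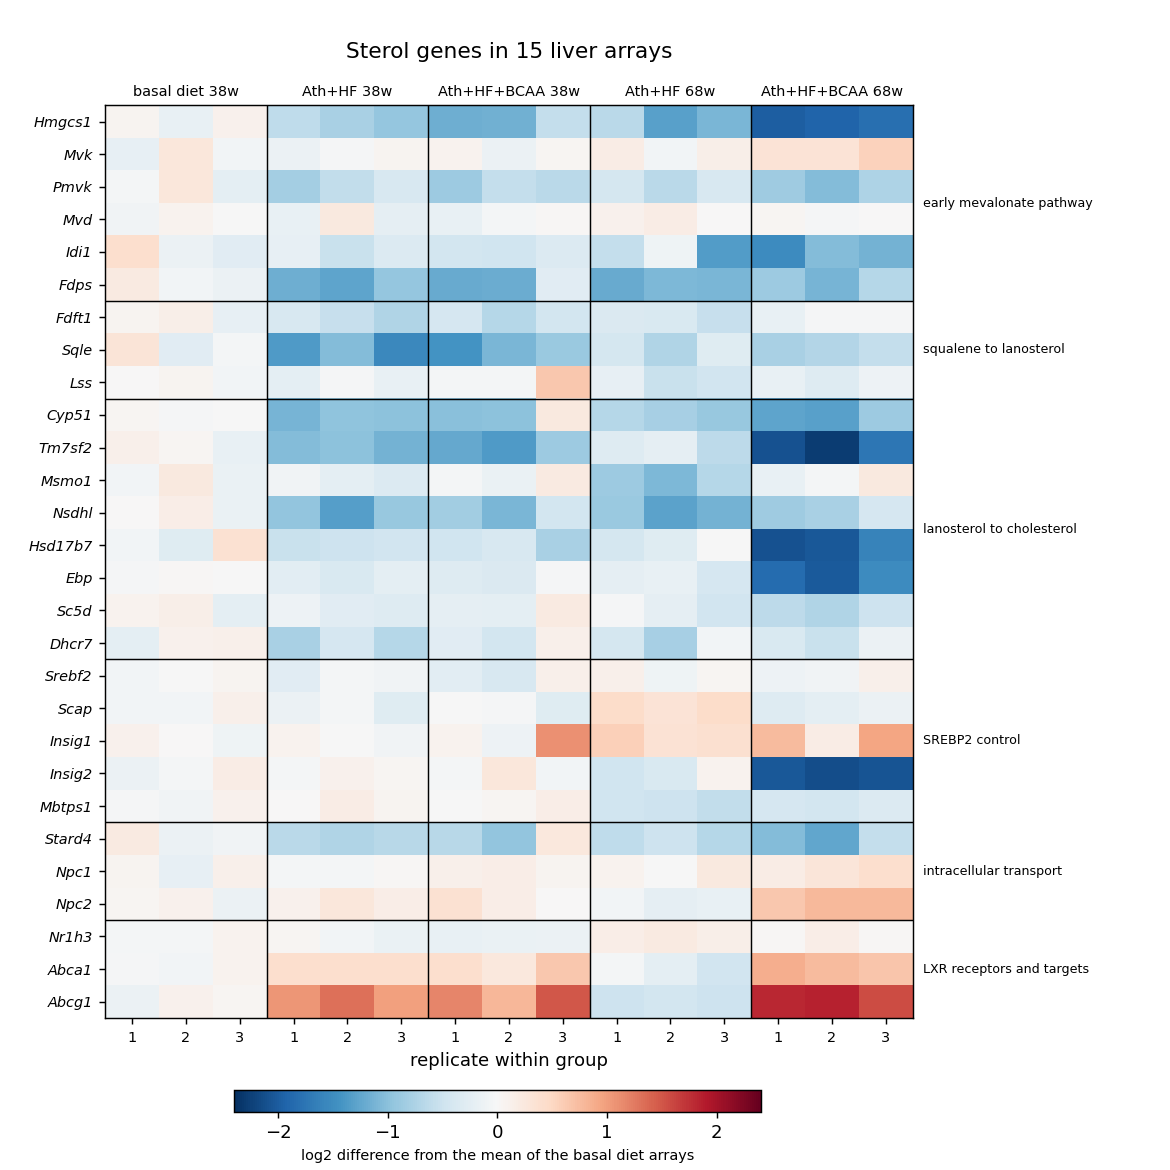
Colour map of the 28 measured sterol genes in the 15 arrays, with genes in rows by role and arrays in columns by group; colour gives the log2 difference from the mean of the basal diet arrays, blue below and red above, on a scale of ±2.4. Hmgcs1, Fdps, Sqle and Nsdhl are blue in all groups on Ath+HF, Tm7sf2, Hsd17b7, Ebp and Insig2 are darkest blue under the label Ath+HF+BCAA 68w, and Abcg1 is red in 3 diet groups and blue in the arrays labelled Ath+HF 68w.

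Several enzymes of cholesterol synthesis were lower in every group on Ath+HF than on the basal diet. In Ath+HF at 38w, 8 of the 17 enzymes were lower and 0 higher, with a median log2 difference of -0.55, where the median over all genes was 0.0. Over all genes, 1.18% were lower and 3.05% higher in this comparison. In Ath+HF+BCAA at 38w, 7 enzymes were lower and 0 higher, with a median of -0.51, against 1.82% lower and 3.67% higher over all genes. In the arrays labelled Ath+HF 68w, 9 enzymes were lower and 0 higher than basal diet, with a median of -0.43, against 19.1% lower and 19.0% higher over all genes. In those labelled Ath+HF+BCAA 68w, 11 were lower and 1 higher, with a median of -0.69, against 21.8% lower and 22.9% higher over all genes. These 4 comparisons share the basal diet arrays. Hmgcs1, Pmvk, Fdps, Sqle and Nsdhl, 5 enzymes of which the last helps to remove the later methyl groups, were lower in all 4, and Mvk, Mvd, Lss and Dhcr7 were lower in none. Per array, between 10 and 17 of the 17 enzymes lay below the basal diet mean in the groups on Ath+HF. The count of 10 came from replicate 3 of Ath+HF+BCAA at 38w, and without that array 8 enzymes were lower in its group. Of the calls in Ath+HF at 38w, those of Pmvk, Cyp51, Fdft1 and Hmgcs1 were lost under 7, 7, 6 and 4 of 25 alternatives, mostly when a compared array was left out, and those of Sqle, Tm7sf2, Nsdhl and Fdps under none. Of those in Ath+HF+BCAA at 38w, Fdft1, Fdps, Nsdhl and Pmvk lost theirs under 5, 5, 3 and 2. Over the 28 sterol genes, 1 was higher and 8 lower in Ath+HF at 38w, 2 and 7 in Ath+HF+BCAA at 38w, 1 and 11 in Ath+HF 68w, and 6 and 14 in Ath+HF+BCAA 68w. The 9 genes called in Ath+HF at 38w became 5 without replicate 1 of basal diet and also without replicate 2 of Ath+HF, and the 9 called in Ath+HF+BCAA at 38w became 5 without its replicate 1. Over all 19938 genes, these fits called 488 higher and 143 lower, 308 and 113, and 389 and 166, in that order. With array medians set equal, the median of all genes moved to -0.14 in Ath+HF 68w and to -0.18 in Ath+HF+BCAA 68w. Under that setting, 0 sterol genes were higher and 20 lower in Ath+HF 68w, where 1191 of 19938 genes were higher and 6145 lower. In Ath+HF+BCAA 68w, 3 sterol genes were higher and 16 lower, where 2781 of all genes were higher and 7057 lower.

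**Figure D2:**
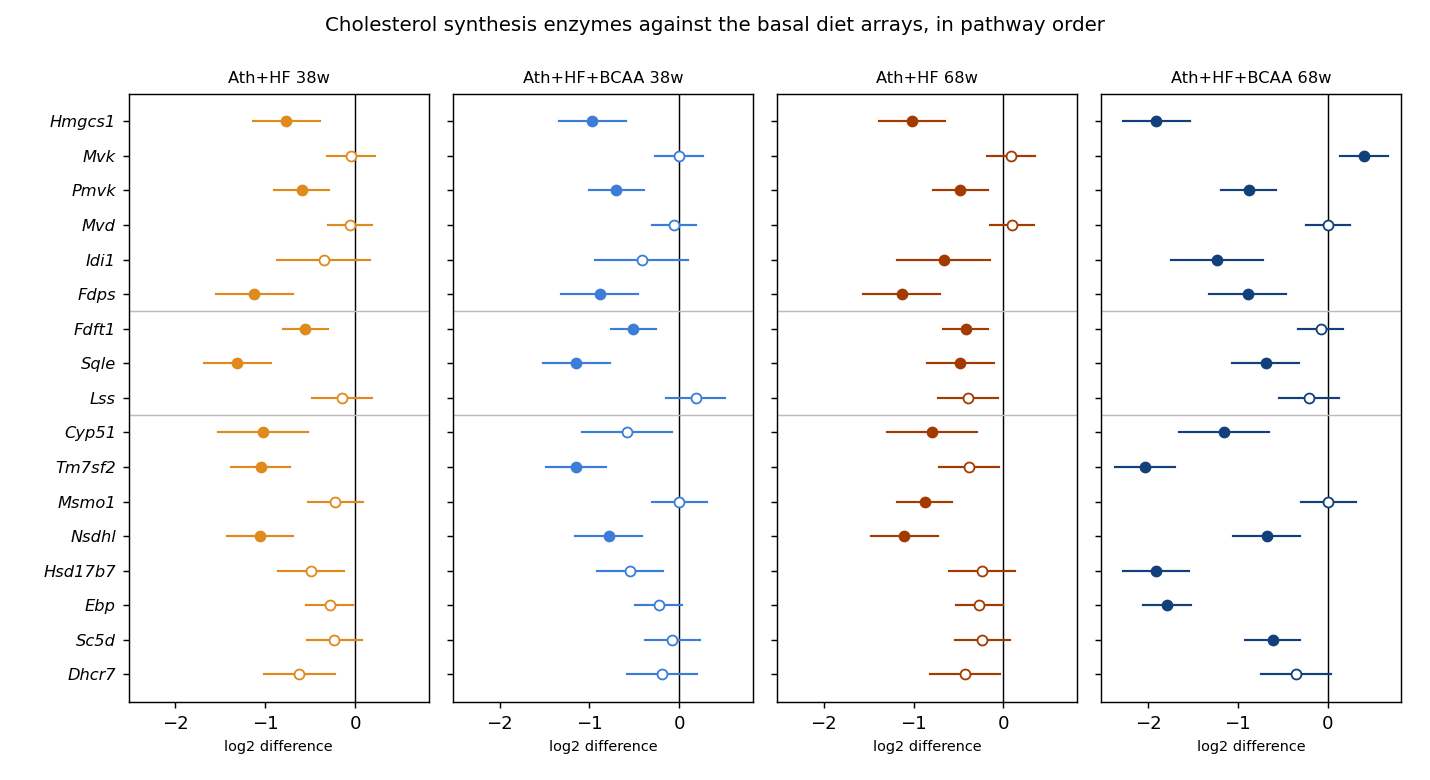
Log2 difference of each of 17 synthesis enzymes from the basal diet arrays, in pathway order from top to bottom, in a panel for each diet group; points are differences of the means of 3 arrays with 95% intervals from limma, filled where the adjusted p is under 0.05. Filled points lie left of 0 in every panel, except that of Mvk (0.40) in the last, and the longest shifts are those of Tm7sf2 (-2.03), Hmgcs1 (-1.91), Hsd17b7 (-1.91) and Ebp (-1.79) in the panel of the arrays labelled Ath+HF+BCAA 68w.

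At the start of the route, Hmgcs1, the synthase that makes HMG-CoA, was lower in every group on the diet. Its log2 signals were 10.75, 10.50 and 10.79 in the basal diet arrays, 10.08, 9.91 and 9.76 in Ath+HF at 38w and 9.51, 9.52 and 10.11 in Ath+HF+BCAA at 38w. They were 10.04, 9.37 and 9.58 in Ath+HF 68w and 8.70, 8.76 and 8.87 in Ath+HF+BCAA 68w. No array on Ath+HF reached the lowest basal diet array, and the arrays labelled Ath+HF+BCAA 68w lay below all others. Against basal diet, the log2 differences were -0.77 ± 0.17, adjusted p = 0.0206 in Ath+HF at 38w, and -0.97 ± 0.17, adjusted p = 0.00413 in Ath+HF+BCAA at 38w. At 68w they were -1.02 ± 0.17, adjusted p = 0.000498, and, with BCAA on the label, -1.91 ± 0.17, adjusted p = 4.73e-07, which is 3.75-fold lower. Between the ages, Hmgcs1 fell by 0.94 with BCAA (adjusted p = 0.000613), while without BCAA the difference was -0.25 (adjusted p = 0.272). The test of the effect of BCAA at 68w minus that at 38w did not call Hmgcs1, so these changes were not shown to differ.

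Pmvk, the kinase that adds the second phosphate to mevalonate, moved less far. It had 8.28, 8.60 and 8.10 in the basal diet arrays against 7.52, 7.74 and 7.94 in Ath+HF at 38w, 7.45, 7.75 and 7.68 in Ath+HF+BCAA at 38w, 7.90, 7.68 and 7.95 in Ath+HF 68w and 7.48, 7.28 and 7.59 in Ath+HF+BCAA 68w. The groups on the diet did not overlap with basal diet, and the differences in that order were -0.59, -0.70, -0.48 and -0.88, with adjusted p-values of 0.0286, 0.00955, 0.0162 and 0.000131. Fdps, which builds farnesyl diphosphate at the branch point to other isoprenoids, was lower in every group on the diet. Its signals were 9.61, 9.32 and 9.25 in basal diet, 8.22, 8.14 and 8.46 in Ath+HF at 38w, 8.18, 8.31 and 8.30 in Ath+HF 68w and 8.53, 8.27 and 8.72 in Ath+HF+BCAA 68w. In Ath+HF+BCAA at 38w they were 8.19, 8.21 and 9.13, where replicate 3 lay close to the basal diet arrays. Fdps differed from basal diet by -1.12 ± 0.20, adjusted p = 0.00474 in Ath+HF at 38w and by -0.88 ± 0.20, adjusted p = 0.0185 in Ath+HF+BCAA at 38w, the latter -1.19 without replicate 3. At 68w the differences were -1.13 ± 0.20, adjusted p = 0.000650, and with BCAA -0.89 ± 0.20, adjusted p = 0.00209.

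Idi1, the isomerase of isopentenyl diphosphate, was called only in 68w arrays, and its arrays labelled Ath+HF 68w were widely spread. They read 8.61, 9.07 and 7.84, against 9.58, 9.03 and 8.91 in basal diet, and the groups overlapped (-0.67 ± 0.24, adjusted p = 0.0419), a call lost under 10 of 24 alternatives. The arrays labelled Ath+HF+BCAA 68w read 7.66, 8.13 and 8.03, all below basal diet, with a difference of -1.23 ± 0.24, adjusted p = 0.000695. Mvk, mevalonate kinase, went the other way. Its signals were 7.85, 8.32 and 8.00 in basal diet and 8.38, 8.38 and 8.62 in Ath+HF+BCAA 68w, so that the lowest of the latter lay just above the highest of the former (0.40 ± 0.13, adjusted p = 0.0160). This call was lost under 6 of 24 alternatives, with array medians set equal among them (adjusted p = 0.208). Mvd, the decarboxylase of the same stretch, was not called in any comparison.

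From farnesyl diphosphate on, Fdft1 makes squalene, Sqle adds the oxygen and Lss closes the rings to lanosterol. Sqle had the largest drop of any measured sterol gene in Ath+HF at 38w. It was also the dimmest of them, with a mean of 6.88 over all arrays and 60.2% of all genes brighter. Its signals were 7.92, 7.33 and 7.55 in basal diet, 6.25, 6.57 and 6.05 in Ath+HF at 38w and 6.16, 6.50 and 6.71 in Ath+HF+BCAA at 38w, with differences of -1.31 ± 0.17, adjusted p = 0.000546, and -1.14 ± 0.17, adjusted p = 0.00135. At 68w the signals were 7.18, 6.89 and 7.30 without BCAA and 6.82, 6.89 and 7.02 with it. Both 68w groups thus lay between the 38w groups on the diet and basal diet, with no overlap to either side. Against basal diet, Sqle was lower by 0.48 (adjusted p = 0.0419) in Ath+HF 68w and by 0.69 (adjusted p = 0.00458) in Ath+HF+BCAA 68w. These 2 calls against basal diet were lost under 10 and 1 of 24 alternatives. Against 38w on the same diet, it was higher by 0.83 (adjusted p = 0.00191) and 0.46 (adjusted p = 0.0496), the latter lost under 13 of 24 alternatives.

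Fdft1, squalene synthase, was lower than basal diet in each diet group except Ath+HF+BCAA 68w. It had 10.35, 10.42 and 10.08 in basal diet, 9.90, 9.74 and 9.56 in Ath+HF at 38w, 9.89, 9.59 and 9.84 in Ath+HF+BCAA at 38w, 9.93, 9.92 and 9.74 in Ath+HF 68w and 10.11, 10.25 and 10.26 in Ath+HF+BCAA 68w. The first 3 of the diet groups lay below all basal diet arrays, with differences of -0.55, -0.51 and -0.42 and adjusted p-values of 0.0152, 0.0207 and 0.0122. The last overlapped with basal diet (-0.077 ± 0.12, adjusted p = 0.630), and it was higher than Ath+HF+BCAA at 38w by 0.43 (adjusted p = 0.00948). Lss, lanosterol synthase, was not called in any comparison, and its replicate 3 of Ath+HF+BCAA at 38w read 8.91 where the other two averaged 8.21.

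In the long stretch from lanosterol to cholesterol, the enzymes did not move as a block. Cyp51, which removes the first methyl group of lanosterol, had 8.45, 8.39 and 8.39 in basal diet and 7.28, 7.44 and 7.43 in Ath+HF at 38w (-1.03 ± 0.24, adjusted p = 0.0214). This call was lost when any 1 of the 6 compared arrays was left out, with adjusted p-values up to 0.0747. It read 7.73, 7.61 and 7.496 in Ath+HF 68w (-0.80 ± 0.24, adjusted p = 0.0155) and 7.15, 7.10 and 7.53 in Ath+HF+BCAA 68w (-1.15 ± 0.24, adjusted p = 0.000945). In Ath+HF+BCAA at 38w it had 7.40, 7.43 and 8.64, so that 2 arrays stood with the diet groups and replicate 3 above basal diet, and the difference was -0.58 (adjusted p = 0.179). Nsdhl, a dehydrogenase that helps to take off the later methyl groups, was lower in all diet groups. It read 9.21, 9.35 and 9.03 in basal diet, 8.26, 7.88 and 8.29 in Ath+HF at 38w, 8.37, 8.10 and 8.76 in Ath+HF+BCAA at 38w, 8.32, 7.91 and 8.06 in Ath+HF 68w and 8.35, 8.42 and 8.79 in Ath+HF+BCAA 68w. No array of these groups reached basal diet, and the differences were -1.06, -0.79, -1.10 and -0.68 (adjusted p = 0.00256, 0.0155, 0.000271 and 0.00498).

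Tm7sf2, a sterol reductase of the endoplasmic reticulum, fell at 38w and then parted between the 68w groups. Its signals were 10.24, 10.16 and 9.92 in basal diet, 9.07, 9.12 and 8.97 in Ath+HF at 38w and 8.89, 8.74 and 9.24 in Ath+HF+BCAA at 38w, which differed from basal diet by -1.05 ± 0.16, adjusted p = 0.00120, and -1.15 ± 0.16, adjusted p = 0.000620. At 68w they were 9.80, 9.90 and 9.48 without BCAA and 8.02, 7.83 and 8.37 with it. The arrays labelled Ath+HF 68w were higher than Ath+HF at 38w by 0.67 (adjusted p = 0.00386), while those labelled Ath+HF+BCAA 68w lay below every other array. The latter were 4.10-fold lower than basal diet (-2.03 ± 0.16, adjusted p = 9.66e-08) and differed from Ath+HF+BCAA at 38w by -0.88 ± 0.16, adjusted p = 0.000417.

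Hsd17b7, which reduces the keto group left by demethylation, and Ebp, the isomerase that shifts the ring double bond, were called lower in 1 diet group only, the arrays labelled Ath+HF+BCAA 68w. Hsd17b7 read 10.60, 10.38 and 11.05 in basal diet, 10.15, 10.18 and 10.22 in Ath+HF at 38w, 10.19, 10.30 and 9.90 in Ath+HF+BCAA at 38w, 10.25, 10.39 and 10.68 in Ath+HF 68w and 8.58, 8.64 and 9.07 in Ath+HF+BCAA 68w. Ebp read 11.03, 11.08 and 11.05, 10.81, 10.70 and 10.81, 10.75, 10.71 and 11.02, 10.84, 10.87 and 10.64 and 9.21, 9.04 and 9.55 in the same order. In both genes the arrays labelled Ath+HF+BCAA 68w lay below the lowest of all other arrays. Against basal diet, Hsd17b7 was 3.76-fold lower (-1.91 ± 0.17, adjusted p = 3.88e-07) and Ebp 3.45-fold lower (-1.79 ± 0.12, adjusted p = 3.52e-08). Against Ath+HF+BCAA at 38w, the differences were -1.37 ± 0.17, adjusted p = 2.19e-05, and -1.56 ± 0.12, adjusted p = 3.92e-07. None of the other diet groups passed the test against basal diet in these genes, with differences of -0.55 to -0.24 for Hsd17b7 and -0.28 to -0.23 for Ebp.

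Msmo1, the oxidase that works on the later methyl groups beside Nsdhl, was lower in the other 68w group. It had 8.55, 8.84 and 8.45 in basal diet and 7.75, 7.53 and 7.93 in the arrays labelled Ath+HF 68w, where it was lower than basal diet (-0.88 ± 0.14, adjusted p = 0.000364) and than Ath+HF at 38w (-0.66 ± 0.14, adjusted p = 0.00255). In Ath+HF+BCAA 68w it had 8.44, 8.57 and 8.85, which overlapped with basal diet. Sc5d, the desaturase before the last step, read 11.43, 11.48 and 11.10 in basal diet and 10.71, 10.62 and 10.85 in Ath+HF+BCAA 68w, and differed by -0.61 ± 0.14, adjusted p = 0.00285. Dhcr7, which makes cholesterol from its last precursor on one arm of the route, was not called in any comparison, with differences from basal diet of -0.62 at the lowest, in Ath+HF at 38w (adjusted p = 0.0750).

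**Figure D3:**
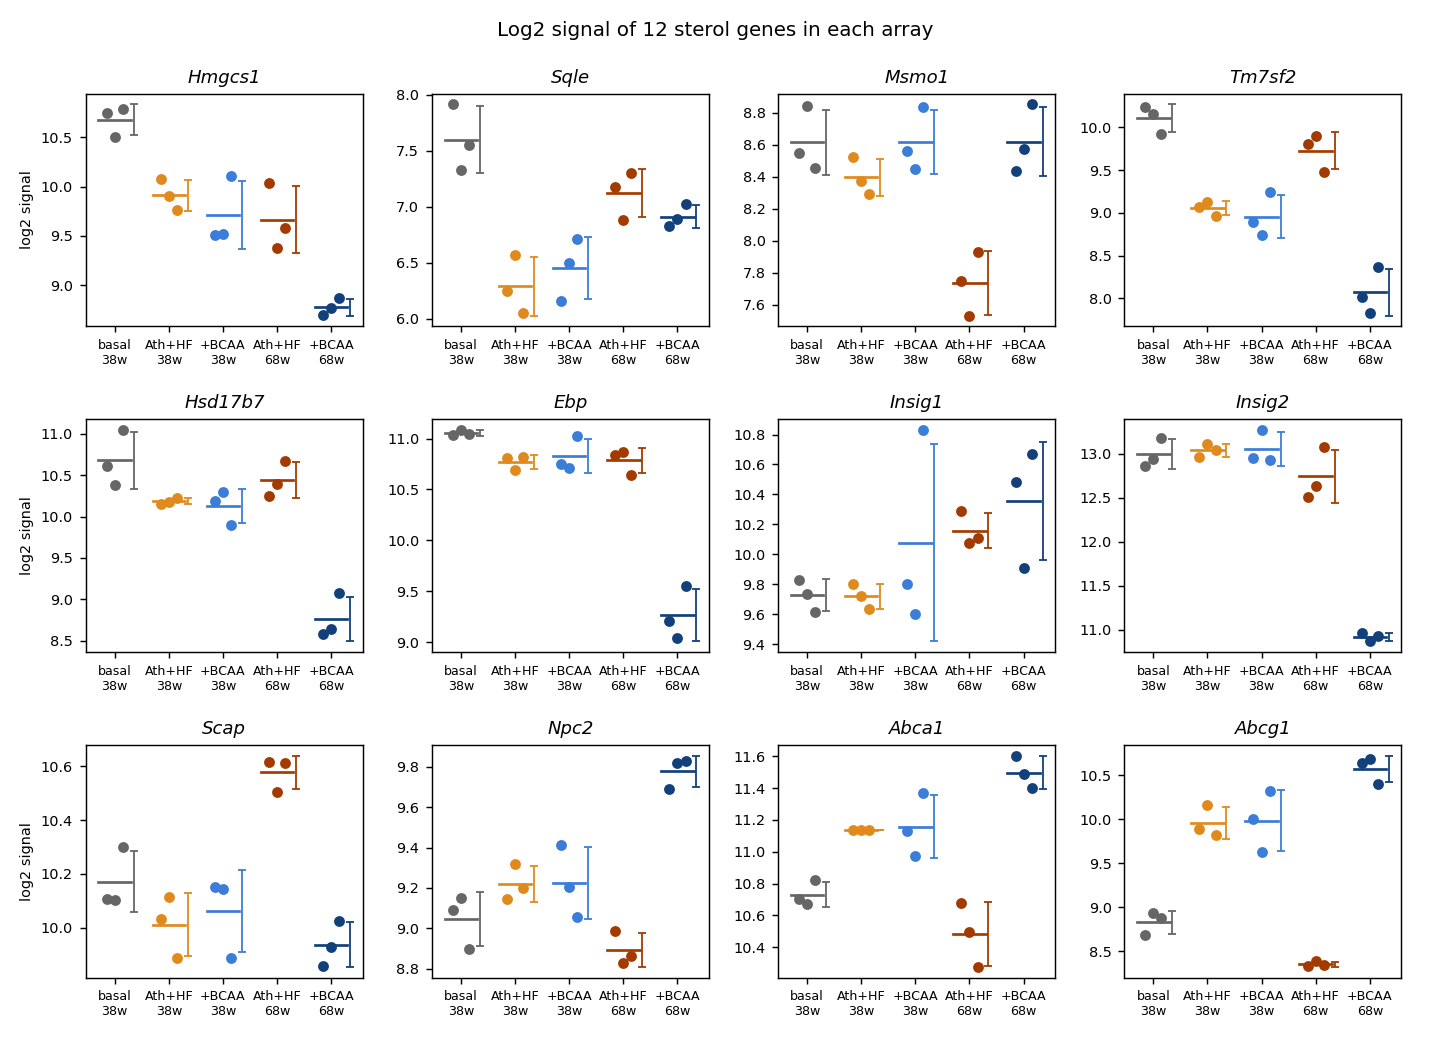
Log2 signal of 12 sterol genes in each of the 15 arrays, a panel per gene with groups along the horizontal axis ("+BCAA" stands for Ath+HF+BCAA); points are arrays, the long bar is the group mean and the bracket beside it the SD (n = 3), and the vertical axes do not start at 0. Hsd17b7, Ebp and Insig2 lie below all other arrays under the label Ath+HF+BCAA 68w, and Msmo1 drops in those labelled Ath+HF 68w.

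Between the ages, 2 enzymes were higher and 1 lower in Ath+HF 68w than at 38w, where 17.6% of all genes were higher and 20.0% lower. In Ath+HF+BCAA, 3 enzymes were higher and 6 lower at 68w, where 20.5% of all genes were higher and 18.3% lower. Over the 28 sterol genes the counts were 4 higher and 5 lower without BCAA, and 7 higher and 8 lower with it. With array medians set equal they were 3 and 6 without BCAA, where 1656 of 19938 genes were higher and 5244 lower. With BCAA they were then 2 and 12, where 2272 of all genes were higher and 5659 lower. After quantile normalization the counts with BCAA were 5 and 10, where 3153 of all genes were higher and 3433 lower.

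Of the genes that control SREBP2, none passed the test at 38w in either diet, where their differences from basal diet lay between -0.18 and 0.35. Srebf2 itself was not called in any of the 9 comparisons, with differences from -0.18 to 0.16. Insig2, one of the anchors that keep Scap and SREBP2 in the endoplasmic reticulum, had the largest fall of all 28 genes. Its signals were 12.86, 12.95 and 13.18 in basal diet, 12.96, 13.11 and 13.05 in Ath+HF at 38w, 12.95, 13.27 and 12.93 in Ath+HF+BCAA at 38w, 12.51, 12.64 and 13.08 in Ath+HF 68w and 10.96, 10.87 and 10.93 in Ath+HF+BCAA 68w. Only the last group stood apart from the others, 4.22-fold below basal diet (-2.08 ± 0.14, adjusted p = 2.47e-08) and 4.39-fold below Ath+HF+BCAA at 38w (-2.13 ± 0.14, adjusted p = 5.47e-08).

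Insig1, the other anchor and itself a known SREBP2 target, did not follow Insig2. It had 9.83, 9.74 and 9.62 in basal diet and 10.48, 9.91 and 10.67 in Ath+HF+BCAA 68w, higher than basal diet by 0.63 (adjusted p = 0.0475). This call was lost under 14 of 24 alternatives, with array medians set equal among them (adjusted p = 0.148). The arrays labelled Ath+HF 68w read 10.29, 10.08 and 10.11, above all basal diet arrays, with a difference of 0.43 that missed the threshold (adjusted p = 0.172). In Ath+HF+BCAA at 38w, Insig1 read 9.80, 9.60 and 10.83, so that replicate 3 was the highest of the 15 arrays. Scap, the escort of SREBP2, was raised in the arrays labelled Ath+HF 68w only. It read 10.62, 10.50 and 10.61 there against 10.11, 10.10 and 10.30 in basal diet (0.41 ± 0.10, adjusted p = 0.00614) and 10.03, 10.12 and 9.89 in Ath+HF at 38w (0.57 ± 0.10, adjusted p = 0.000666), while Ath+HF+BCAA 68w read 9.86, 9.93 and 10.02. With array medians set equal, its difference from basal diet was 0.22 (adjusted p = 0.124). Mbtps1, the first protease to cut SREBP2, was lower in both 68w groups. It had 10.22, 10.16 and 10.35 in basal diet, 9.76, 9.75 and 9.66 in Ath+HF 68w (-0.52 ± 0.089, adjusted p = 0.000488) and 9.84, 9.80 and 9.92 in Ath+HF+BCAA 68w (-0.39 ± 0.089, adjusted p = 0.00216). Against 38w, the differences were -0.60 ± 0.089, adjusted p = 0.000143, and with BCAA -0.46 ± 0.089, adjusted p = 0.000906.

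Most clock genes differed from basal diet under the label Ath+HF+BCAA 68w. There 9 of 13 were higher and 3 lower, where 22.9% of all genes were higher and 21.8% lower, and they ran from -2.37 for Arntl to 4.02 for Ciart. Ath+HF 68w had 3 higher and 2 lower, near the 19.0% and 19.1% of all genes. At 38w, 0 of 13 passed the test in Ath+HF, and 1 was lower in Ath+HF+BCAA. The part of the clock genes in the 68w values of Insig2, Hsd17b7, Ebp and Tm7sf2 was not tested.

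Among the carriers of sterols inside the cell, Stard4, a soluble carrier that SREBP2 is known to switch on, was called in 1 group and Npc2 in several comparisons. Stard4 read 8.47, 8.12 and 8.18 in basal diet and 7.21, 7.02 and 7.69 in Ath+HF+BCAA 68w, and was lower there (-0.95 ± 0.23, adjusted p = 0.00353). In the other diet groups its differences were -0.68, -0.46 and -0.60, and none passed the test (adjusted p = 0.130, 0.296 and 0.0536). In Ath+HF+BCAA at 38w, Stard4 read 7.59, 7.31 and 8.51, so that replicate 3 lay above every basal diet array. Npc2, which binds cholesterol in the lysosome, read 9.09, 9.15 and 8.90 in basal diet, 9.14, 9.32 and 9.20 in Ath+HF at 38w, 9.41, 9.21 and 9.06 in Ath+HF+BCAA at 38w, 8.99, 8.83 and 8.86 in Ath+HF 68w and 9.69, 9.82 and 9.83 in Ath+HF+BCAA 68w. The last group lay above all other arrays, and was higher than basal diet (0.73 ± 0.11, adjusted p = 4.49e-05) and than Ath+HF+BCAA at 38w (0.55 ± 0.11, adjusted p = 0.000808). The arrays labelled Ath+HF 68w were lower than Ath+HF at 38w by 0.33 (adjusted p = 0.0252). Npc1, its membrane partner, was higher in Ath+HF+BCAA 68w than in basal diet by 0.29 (adjusted p = 0.0325), from 11.38, 11.12 and 11.43 to 11.48, 11.59 and 11.72. That call was lost under 6 of 24 alternatives, with array medians set equal among them (adjusted p = 0.444), and no other comparison called the gene.

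On the LXR side, Abcg1 rose on both diets at 38w, while the receptor Nr1h3 was not called there. Abcg1, which hands cholesterol to lipoprotein particles and is abundant in macrophages, read 8.68, 8.94 and 8.87 in basal diet, 9.89, 10.16 and 9.82 in Ath+HF at 38w and 10.003, 9.63 and 10.32 in Ath+HF+BCAA at 38w. It was 2.18-fold higher in Ath+HF (1.13 ± 0.15, adjusted p = 0.000496) and 2.22-fold higher in Ath+HF+BCAA (1.15 ± 0.15, adjusted p = 0.000405). At 68w it read 8.33, 8.39 and 8.34 without BCAA and 10.63, 10.68 and 10.40 with it. The former lay below every basal diet array (-0.48 ± 0.15, adjusted p = 0.0194) and the latter above every array of the other groups (1.74 ± 0.15, adjusted p = 2.26e-07). Against 38w, Abcg1 was 3.04-fold lower in Ath+HF 68w (-1.60 ± 0.15, adjusted p = 3.27e-06) and 1.503-fold higher in Ath+HF+BCAA 68w (0.59 ± 0.15, adjusted p = 0.00532).

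Abca1, which loads cholesterol onto apolipoproteins, moved over a smaller span and was called in fewer comparisons than Abcg1. It read 10.71, 10.67 and 10.82 in basal diet, 11.14, 11.14 and 11.14 in Ath+HF at 38w, 11.13, 10.98 and 11.37 in Ath+HF+BCAA at 38w, 10.68, 10.50 and 10.27 in Ath+HF 68w and 11.60, 11.49 and 11.40 in Ath+HF+BCAA 68w. Both 38w groups on the diet lay above basal diet, with differences of 0.41, which missed the threshold (adjusted p = 0.0638), and 0.43 ± 0.12, adjusted p = 0.0452. Without replicate 3 of Ath+HF+BCAA at 38w, the latter was 0.32 (adjusted p = 0.168). At 68w without BCAA, Abca1 was lower than at 38w (-0.66 ± 0.12, adjusted p = 0.000615), while it overlapped with basal diet (-0.25, adjusted p = 0.105), and with BCAA it was higher than basal diet (0.77 ± 0.12, adjusted p = 6.90e-05) and than at 38w (0.34 ± 0.12, adjusted p = 0.0310). Nr1h3, the receptor LXR alpha, read 10.26, 10.15 and 10.06 in Ath+HF at 38w and 10.39, 10.44 and 10.37 at 68w, and rose by 0.24 (adjusted p = 0.0385). With BCAA it rose by 0.23 (adjusted p = 0.0473), from 10.04, 10.06 and 10.08 to 10.24, 10.38 and 10.24. These calls were lost under 8 and 14 of 24 alternatives, in both cases with array medians set equal among them (adjusted p = 0.299 and 0.536). Against basal diet the receptor was not called in any group.

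Macrophage markers moved with Abcg1, Abca1 and Npc2. The mean signal of the 16 macrophage and Kupffer cell markers was 9.56 to 9.61 in basal diet, 10.53 to 10.83 in Ath+HF at 38w, 10.32 to 10.82 in Ath+HF+BCAA at 38w, 8.85 to 9.004 in Ath+HF 68w and 11.08 to 11.37 in Ath+HF+BCAA 68w, which is the order of the 3 genes by group, apart from both 38w groups on the diet, whose ranges overlapped. Of the 16 markers, 11 were higher and 0 lower than basal diet in each 38w group, where 3.05% of all genes were higher in Ath+HF and 3.67% in Ath+HF+BCAA. In Ath+HF 68w, 1 marker was higher and 8 lower, beside 19.0% and 19.1% of all genes, and in Ath+HF+BCAA 68w 13 were higher and 0 lower, beside 22.9% and 21.8%. Their part in the values of the 3 genes was not tested.

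The BCAA supplement was then compared within each age. At 38w, limma called 0 of the 28 sterol genes, and 0% of all genes in either direction. Of the 28, 1 had an unadjusted p under 0.05, and of all genes 1528 did. The differences lay between -0.20 and 0.44, with 95% intervals that stayed within -0.59 and 0.94 and had a median half-width of 0.31. Without replicate 3 of Ath+HF+BCAA at 38w, the count for the 28 genes was again 0.

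Of the sterol genes at 68w, the label Ath+HF+BCAA had 5 higher and 7 lower than the label Ath+HF, where 19.8% of all genes were higher and 16.4% lower. The lower ones were 5 enzymes, Scap and Insig2. Insig2 was lower by 1.82 (standard error 0.14, adjusted p = 8.20e-08), Hsd17b7 by 1.67 (adjusted p = 1.77e-06), Tm7sf2 by 1.66 (adjusted p = 7.95e-07) and Ebp by 1.52 (adjusted p = 1.65e-07). Hmgcs1 was lower by 0.89, Scap by 0.64 and Pmvk by 0.40 (adjusted p = 0.000910, 0.000143 and 0.0414). The higher ones were both exporters, Npc2 and 2 enzymes. Abcg1 was 4.65-fold higher (2.22 ± 0.15, adjusted p = 2.39e-08), Abca1 2.02-fold (1.01 ± 0.12, adjusted p = 5.77e-06) and Npc2 1.85-fold (0.89 ± 0.11, adjusted p = 8.95e-06). Msmo1 was higher by 0.88 and Fdft1 by 0.34 (adjusted p = 0.000175 and 0.0345). The calls of Pmvk and Fdft1 were lost under 6 and 5 of 24 alternatives. In all 12 genes the arrays of both 68w groups did not overlap, which was so for 58.7% of all genes. The 12 were picked by their calls in this same comparison, so these shares are not alike and nothing is drawn from them. The enzymes of the last stretch therefore lay on both sides of 0, with Msmo1 higher and Tm7sf2, Hsd17b7 and Ebp lower.

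**Figure D4:**
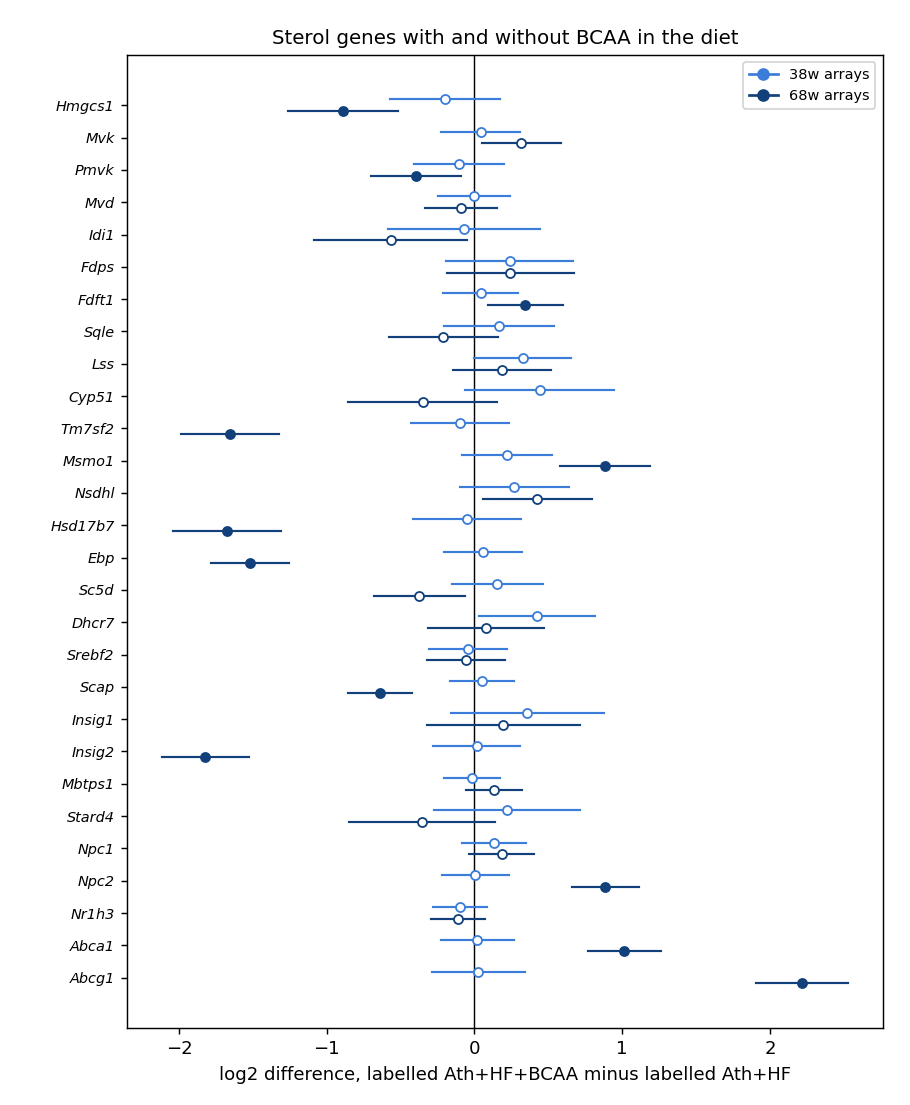
Log2 difference of the 28 sterol genes between Ath+HF+BCAA and Ath+HF at 38w (light) and 68w (dark), as labelled; points are differences of the means of 3 arrays with 95% intervals from limma, filled where the adjusted p is under 0.05. No 38w point is filled, and the filled 68w points run from -1.82 for Insig2 to 2.22 for Abcg1.

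The difference between the ages in this effect was tested itself. It passed the test for 4 sterol genes with a higher and 5 with a lower value at 68w than at 38w, where 12.9% of all genes were higher and 7.67% lower. Abcg1 (2.19 ± 0.21, adjusted p = 3.42e-06), Abca1 (0.995 ± 0.17, adjusted p = 0.000457), Npc2 (0.88 ± 0.15, adjusted p = 0.000585) and Msmo1 (0.66 ± 0.20, adjusted p = 0.0306) were the former. Insig2 (-1.84 ± 0.20, adjusted p = 8.76e-06), Hsd17b7 (-1.62 ± 0.24, adjusted p = 0.000190), Ebp (-1.57 ± 0.18, adjusted p = 1.30e-05), Tm7sf2 (-1.56 ± 0.22, adjusted p = 0.000118) and Scap (-0.69 ± 0.14, adjusted p = 0.00283) were the latter. All 9 kept their calls without replicate 3 of Ath+HF+BCAA at 38w. That of Msmo1 was lost under 8 of 23 alternatives, with adjusted p-values up to 0.0832.

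Neighbouring genes of the route were counted from lists of their own. In the isoprenoid branch, which takes farnesyl diphosphate to prenyl groups, dolichol and coenzyme Q, 0 of 8 genes were called on either diet at 38w, and at 68w 7 were lower in Ath+HF and 5 in Ath+HF+BCAA than in basal diet, where 19.1% and 21.8% of all genes were lower. Nus1, a subunit of the enzyme that makes dolichol, was lower by 0.999 (adjusted p = 4.31e-06) and 0.93 (adjusted p = 5.87e-07), and Fnta, the alpha subunit of farnesyltransferase, by 0.63 and 0.90 (adjusted p = 0.000252 and 2.80e-06). Of 8 partners and targets of LXR, 2 were higher and 1 lower in each diet group at 38w, where 3.05% and 3.67% of all genes were higher and 1.18% and 1.82% lower. The higher ones were Abcg5 and Abcg8, which together export sterols into bile. Abcg5 differed from basal diet by 1.21 ± 0.15, adjusted p = 0.000279 in Ath+HF and by 0.99 ± 0.15, adjusted p = 0.00112 in Ath+HF+BCAA, and Abcg8 by 1.01 ± 0.18, adjusted p = 0.00367 and 0.79 ± 0.18, adjusted p = 0.0157. At 68w, Abcg5 was lower in Ath+HF (-0.47 ± 0.15, adjusted p = 0.0213) and higher in Ath+HF+BCAA (1.44 ± 0.15, adjusted p = 1.35e-06), the same directions as Abcg1. Abcg8 did not share the fall. Its group means were 9.71 in basal diet, 10.15 in Ath+HF 68w and 11.31 in Ath+HF+BCAA 68w. Of the 8, 2 were higher and 2 lower in Ath+HF 68w than in basal diet, and 4 higher and 1 lower in Ath+HF+BCAA 68w. Between the 68w groups, all 8 were called, 4 higher and 4 lower, where 19.8% of all genes were higher and 16.4% lower.

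Of 10 further genes of sterol handling, 1 was higher in Ath+HF at 38w and 2 in Ath+HF+BCAA at 38w, beside 3.05% and 3.67% of all genes, and 0 were lower. In Ath+HF 68w 3 were higher and 1 lower than basal diet, beside 19.0% and 19.1% of all genes, and in Ath+HF+BCAA 68w 5 were higher and 4 lower, beside 22.9% and 21.8%. Gramd1b, a carrier of cholesterol from the cell membrane to the endoplasmic reticulum, was higher by 1.65 in Ath+HF at 38w, 1.40 in Ath+HF+BCAA at 38w and 1.94 in Ath+HF+BCAA 68w (adjusted p = 7.68e-05, 0.000190 and 2.07e-07). In Ath+HF 68w its difference was -0.33 (adjusted p = 0.117). Lipa, the lysosomal lipase that frees cholesterol from its esters, was lower in Ath+HF+BCAA 68w by 0.66 (adjusted p = 0.000246). Of 13 regulators of SREBP, 0 were called at 38w on either diet. Between the 68w groups 4 of the 13 were higher and 3 lower with BCAA on the label, where 19.8% of all genes were higher and 16.4% lower. Sec24a and Sec23a, coat proteins of the vesicles that carry Scap and SREBP2 to the Golgi, were lower by 0.70 and 0.84 (adjusted p = 1.34e-05 and 7.84e-05). Nfya, the regulatory subunit of NF-Y, was higher by 0.51 (adjusted p = 0.000336), and Rnf145, a ubiquitin ligase of the endoplasmic reticulum, by 0.66 (adjusted p = 0.000214). Srebf1, which encodes SREBP1, the relative of SREBP2 known for fatty acid synthesis, had the largest difference of this list (1.53 ± 0.33, adjusted p = 0.00216) and was named after its values were seen.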

How the data were processed

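RNA of 15 liver samples was measured on GeneChip Mouse Gene 1.0 ST arrays. What the authors deposited are log2 signals from RMA, run in Affymetrix Expression Console (no version found in the sources read). RMA corrects background and quantile normalizes the arrays, which can remove a shift shared by all genes. The deposited values still had an offset, with array medians over all rows of 6.91 to 7.04 at 38w and 7.10 to 7.16 at 68w. Comparisons of 68w with 38w or with basal diet include it. Of 35556 rows of values, 21789 carried 1 gene symbol in the platform's annotation, 1621 several and 12146 none, and only the first were used. The row with the highest mean stood for each of 19938 genes, and Idi1 and Fdft1 had 2 rows each.

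All arrays entered 1 model with a mean per group (lmFit and eBayes of limma 3.58.1 under R 4.3.3, 10 residual degrees of freedom). From it came 9 comparisons, each with p-values adjusted over all genes by Benjamini-Hochberg. The sterol genes and the other gene lists were chosen with earlier results of these data known. A gene was given with the values of every array where it was called and the arrays did not overlap, with at most the 4 of smallest p per role and comparison. Of each neighbouring list, at most 4 called genes were named, and Srebf1 was added to these after its values were seen. Marker signals are the log2 of the mean linear signal of a list. Promoters came from RefSeq (GRCm38.p6). The fit was tested on simulated data. Alternatives were other scalings, filters, fits and tests, and leaving out each array. One more alternative, in which only 38w arrays were fitted, was chosen after seeing the data. The number of arrays limits the precision.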

Additional observations from a re-analysis of the deposited data

Results flagged for a closer look

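The effect of BCAA on the label differed between 68w and 38w in 9 of the 28 sterol genes by limma's test of that difference (adjusted p under 0.05). On the log2 scale, the difference at 68w minus that at 38w was 2.19 for Abcg1, 0.995 for Abca1, 0.88 for Npc2 and 0.66 for Msmo1. It was -1.84 for Insig2, -1.62 for Hsd17b7, -1.57 for Ebp, -1.56 for Tm7sf2 and -0.69 for Scap. At 38w the differences of these 9 genes lay between -0.10 for Tm7sf2 and 0.22 for Msmo1, and at 68w between -1.82 for Insig2 and 2.22 for Abcg1. These results rest on the labels of the 68w groups. With exchanged labels the part from 38w would stay as it is, so sizes and calls could change as well as signs.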

How the results depend on the processing

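Of the counts of called sterol genes, that of Ath+HF at 38w against basal diet was 9, and 5 to 11 with an array left out. That of Ath+HF+BCAA at 38w was 9, 5 to 10 with an array left out and 4 in a fit of the compared groups alone. That of Ath+HF 68w was 12, and became 20 with array medians set equal and 7 by analysis of variance with Bonferroni adjustment over the pairs of groups. Over all genes, the calls of Ath+HF 68w went from 3791 higher and 3812 lower to 1191 and 6145 with medians set equal. The count between both 68w groups was 12, and became 19 with array weights. Calls over all genes rose there too, from 3947 higher and 3274 lower to 4792 and 5340. The cause of these shifts was not tested. The other 5 counts stayed within 1.5 times their value under every alternative run, that of BCAA at 38w at 0. Over all genes, the latter comparison gave 0 calls or 1, except 201 by analysis of variance, whose p-values were not adjusted over genes. The 95 single calls of sterol genes changed sign under none of the alternatives, and 192 of 2289 repeats missed the threshold. Those most often lost were Abca1 in Ath+HF+BCAA at 38w against basal diet (18 of 25), Insig1 in Ath+HF+BCAA 68w against basal diet (14 of 24) and Nr1h3 in Ath+HF+BCAA 68w against 38w (14 of 24).

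The labels number the arrays 1 to 3 in every group. Over the 30 pairs of arrays that share a number, the correlation of their deviations from the group means lay between -0.16 and 0.18, and 3 were over 0.1, so the numbers were not taken to pair the arrays. With the replicate number as a block, 10 sterol genes were called in Ath+HF at 38w, 8 in Ath+HF+BCAA at 38w, 13 in Ath+HF 68w and 20 in Ath+HF+BCAA 68w against basal diet. Dim genes have signals near background, which limits their differences.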
